A study of Homo sapiens with 16 samples.

Results

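The subject is the change in chromatin accessibility after 1 h of dTAG47 in experiment 6211, measured as 2 libraries treated for 1 h against 2 DMSO libraries, 4 of the 16 libraries of the study. These 4 were taken by their column names, and all 40844 regions of the experiment's count table were tested. The cells were Rh30, a human line of fusion-positive rhabdomyosarcoma, in which PAX3-FOXO1 carried an FKBP tag. The treated group received dTAG47 at 500 nM for 1 h and the control group DMSO, for which the labels give no duration. Experiment 6211 also had groups at 0.5 h and 2 h, and a separate experiment, 6086, had its own DMSO group and groups at 2, 4 and 24 h, each of 2 libraries. Both groups compared carried the tagged fusion, so that loss of the fusion and any other action of dTAG47 cannot be told apart, and the amount of fusion protein was not analysed here. The sources used here do not say whether the tagged cells were 1 clone.

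PAX3-FOXO1 joins the DNA-binding domains of PAX3, a factor of the muscle lineage, to the activation domain of FOXO1, and it binds mostly distal enhancers in these tumours. A dTAG molecule holds an FKBP-tagged protein against a ubiquitin ligase, and the tagged protein is then destroyed by the proteasome. In ATAC-seq a transposase cuts accessible DNA and adds sequencing adapters there, so that read counts over a region follow how open it is. Regions are named by position on hg19, the human build in the submitters' processing notes, and by genes nearby. Those gene names come from general knowledge of the gene map, not from an annotation. All 53 symbols used were on the stated chromosome in RefSeq's table for GRCh38.p14. No distance to a gene was computed, and no sequence is shown because no genome of that build was used here.

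The 1 h libraries held 13985582 reads in regions (library A) and 18275976 (library B), and the DMSO libraries 13559279 (A) and 10707995 (B), so that 1 h library B was the deepest of the experiment. The letters are names only. Across regions, the 1 h libraries had a Spearman correlation of 0.969 with each other and the DMSO libraries one of 0.960. Between groups it ran from 0.926 (1 h library B with DMSO library A) to 0.966 (1 h library A with DMSO library B). The 1 h replicates were thus closer to each other than to either DMSO library, while the DMSO replicates were not closer than every pair across groups. The 1 h replicates were not closest to each other among all libraries either. Library A of 1 h had a correlation of 0.976 with each 0.5 h library and 0.970 with 2 h library A, above that with 1 h library B. Nothing in the labels says that replicates were grown separately, and the p-values therefore rest on differences between libraries that may be technical. Levels are in CPM, counts scaled to the reads in regions of each library after TMM adjustment. Log2 changes and adjusted p-values are those of edgeR (quasi-likelihood test), adjusted over all 40844 regions by Benjamini-Hochberg, and a region is called lower or higher at an adjusted p under 0.05.

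After 1 h of dTAG47 accessibility fell at 1010 regions (2.47% of those tested) and rose at 90 (0.22%), so that 91.8% of the calls were losses. Losses were moderate, with a median log2 change of -0.55, against 0.01 over all regions. Of the 1010, 426 lost at least 1.5-fold and 44 (0.108% of all regions) at least 2-fold. The 90 gains had a median of 0.445, and 10 of them reached 1.5-fold. Among all regions, 3973 lower and 2714 higher ones had an unadjusted p under 0.05. Every called region had both 1 h libraries on one side of both DMSO libraries, an arrangement that also held downward at 21.3% and upward at 20.9% of all regions.

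**Figure D1:**
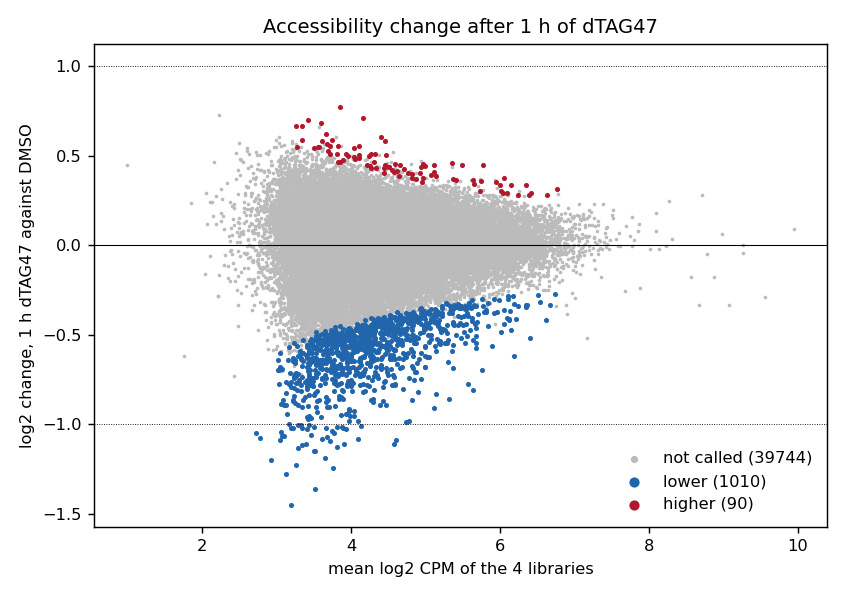
Log2 change at 1 h against DMSO (vertical axis) for each of the 40844 regions by its mean level in the 4 libraries (horizontal axis, log2 CPM), with 1010 lower regions in blue, 90 higher ones in red and dotted lines at 2-fold. The losses of at least 2-fold lie at low to middle levels, and the gains end at a log2 change of 0.77.

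Single libraries moved these counts. Without DMSO library A, 326 regions were lower and 6 higher, 304 and 6 of them shared with the full fit. Leaving out 1 h library B left 172 and 2 (169 and 2 shared). Without DMSO library B, 1592 were lower and 967 higher (924 and 66 shared), and without 1 h library A 1316 and 331 (834 and 69 shared). Each of these 4 fits leaves an arm of 1 library, which is assumed to vary like the other groups. In every one of them 153 regions (0.375% of all) were lower, with log2 changes from -1.45 to -0.42 (median -0.81), and 1 region was higher in each. The authors' deposited table, which holds a DESeq2-style test that DESeq2 run here on the counts matched at every region, has 360 lower (0.881%) and 6 higher regions (0.0147%) at an adjusted p under 0.05, and edgeR here called all of them in the same direction.

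The median over the 1010 lower regions, relative to the DMSO mean of each region on the log2 scale, was -0.49 in 1 h library A and -0.61 in library B. It was 0.05 and -0.05 in the DMSO libraries A and B. The 0.5 h libraries, whose levels do not enter the contrast at 1 h, had medians of -0.31 and -0.30, and the 2 h libraries -0.71 and -0.75. The 90 higher regions had medians of 0.36 and 0.50 at 1 h, 0.24 in both 0.5 h libraries, and 0.34 and 0.38 at 2 h. All of these values use the same DMSO libraries, so their agreement in sign is not independent.

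The deepest loss lay in ARID4B, which encodes a chromatin protein of the SIN3 corepressor complex, at chr1:235344260-235344660. Its level was 18.2 CPM in DMSO library A and 12.1 in B, and 6.95 and 4.50 CPM in the 1 h libraries. The lower DMSO library was still above the higher 1 h library, although replicates differed by about as much in DMSO as the groups' nearest libraries did. The log2 change was -1.45 (SE 0.20, adjusted p = 0.00017), a 2.73-fold loss. Between SPHKAP, an anchor protein for a kinase, and PID1, an adaptor in insulin signalling, chr2:229391074-229391474 went from 18.9 and 17.6 CPM to 8.10 and 6.26 CPM. Here the replicates lay close together and the groups far apart (log2 change -1.36, SE 0.14, adjusted p = 2.2e-05). At chr18:1017212-1017612, with ADCYAP1 as the nearest gene known here, the gene of the neuropeptide PACAP, DMSO libraries had 12.8 and 14.6 CPM and 1 h libraries 5.16 and 5.99 CPM, a log2 change of -1.28 (SE 0.16, adjusted p = 5e-05). A second region directly beside it, chr18:1017679-1018450, was broader and less affected, with 52.4 and 41.9 CPM in DMSO and 33.3 and 32.4 CPM at 1 h (log2 change -0.53, SE 0.10, adjusted p = 0.003).

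Other deep losses lay inside genes or near a gene start. CSRP3 encodes the muscle LIM protein of striated muscle, and the region chr11:19206888-19207288 inside it had 21.4 and 16.6 CPM in DMSO and 9.10 and 7.80 CPM at 1 h. Its log2 change was -1.19 (SE 0.15, adjusted p = 5.1e-05). Near the start of PLPPR1, a membrane protein of neurons, chr9:103784954-103785354 had 14.5 and 14.7 CPM in DMSO and 7.24 and 5.38 CPM at 1 h (log2 change -1.23, SE 0.16, adjusted p = 0.0001). IRAK3, an inhibitor of Toll-like receptor signalling, held chr12:66634827-66635227, with 19.8 and 21.7 CPM in DMSO and 9.75 and 9.23 CPM at 1 h (log2 change -1.13, SE 0.13, adjusted p = 4.2e-05).

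Further deep losses lay between genes. Between PGRMC2, a progesterone receptor membrane component, and JADE1, a subunit of a histone acetyltransferase complex, chr4:129503659-129504059 had 23.3 and 18.4 CPM in DMSO and 9.75 and 8.07 CPM at 1 h (log2 change -1.24, adjusted p = 4.2e-05). Log2 changes from -1.20 to -1.12 were found at 4 more: chr5:128256042-128256442 between FBN2 and SLC27A6, chr14:32346386-32346786 between NUBPL and ARHGAP5, chr17:51270377-51270777 between CA10 and KIF2B, and chr12:96515247-96515647 between LTA4H and ELK3. All 12 were 401 bp wide and held mean DMSO levels of 11.4 to 20.8 CPM, and in all 12 both DMSO libraries lay above both 1 h libraries, as the rule for naming them required. Each of the 12 kept its direction and its call under all 16 alternative settings, with a highest adjusted p of 0.031.

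**Figure D2:**
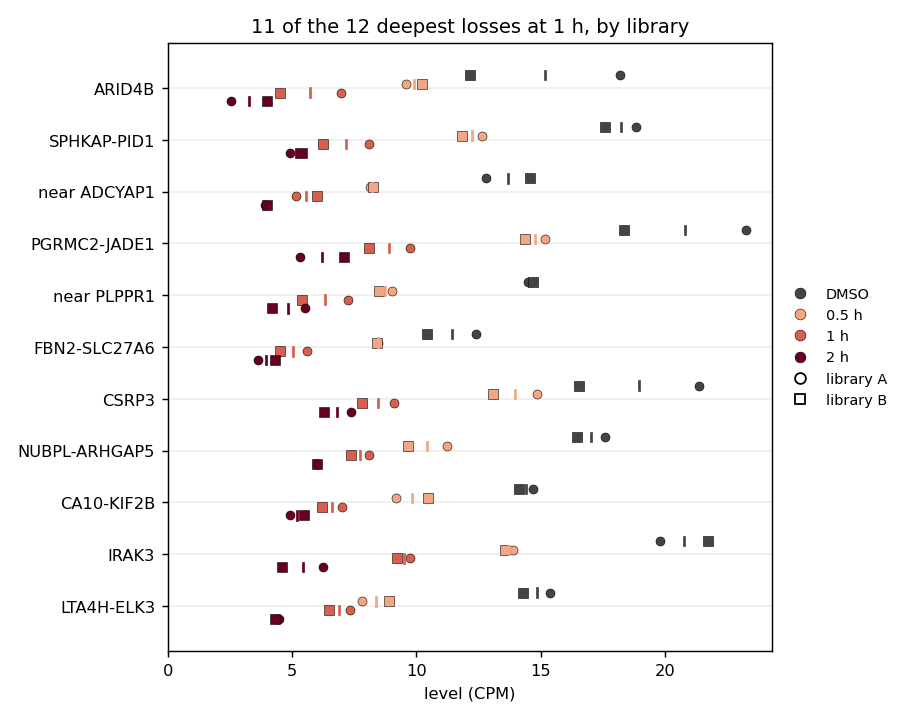
Level in CPM (horizontal axis) of 11 of the 12 regions with the deepest loss at 1 h, 1 row a region, in each of the 8 libraries of experiment 6211; circles are library A, squares library B and vertical ticks group means. In every row the DMSO libraries lie to the right of the 1 h libraries, as the rule for naming these regions required. In ARID4B the means go from 15.2 CPM in DMSO to 5.73 CPM at 1 h.

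The regions with the smallest p included losses of higher level. PIPOX, the gene of an oxidase of pipecolic acid and sarcosine and a known target of the fusion, held chr17:27378228-27378628. There the DMSO libraries had 66.9 and 64.3 CPM, the 0.5 h libraries 48.8 and 44.9, the 1 h libraries 36.4 and 38.3, and the 2 h libraries 26.1 and 21.7 CPM. No 2 groups overlapped, and the loss at 1 h was 1.75-fold (log2 change -0.81, SE 0.09, adjusted p = 2.2e-05). Between CDC5L, a splicing factor, and SUPT3H, a subunit of the SAGA coactivator complex, chr6:44628192-44628592 had 62.3 and 62.0 CPM in DMSO and 36.2 and 36.4 CPM at 1 h (log2 change -0.78, SE 0.08, adjusted p = 2.2e-05). Near CCDC154, chr16:1480600-1481000 went from 34.01 and 35.86 CPM to 17.7 and 14.8 CPM, the smallest p of all regions (log2 change -1.11, SE 0.11, adjusted p = 1.9e-05). Between SELENOP, a selenium transport protein, and ANXA2R, chr5:42855493-42855893 had 37.9 and 32.8 CPM in DMSO and 17.8 and 15.8 CPM at 1 h (log2 change -1.09, adjusted p = 2e-05).

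Losses at the highest levels were shallow, and their calls at 1 h rested on single libraries. In SPG7, which encodes a mitochondrial protease, chr16:89609375-89609775 had 108 and 94.6 CPM in DMSO and 77.9 and 64.2 CPM at 1 h (log2 change -0.52, SE 0.09, adjusted p = 0.00096). Between SULF2, an enzyme that trims heparan sulfate, and PREX1, an activator of Rac, chr20:47084372-47084772 went from 119 and 108 CPM to 92.3 and 77.9 CPM (log2 change -0.42, adjusted p = 0.0036). The regions chr20:57909738-57910138 between EDN3 and PHACTR3, chr1:1502861-1503261 in SSU72, a phosphatase of RNA polymerase II, and chr12:58627796-58628196 between ATP23 and LRIG3 had log2 changes of -0.33, -0.32 and -0.27 (adjusted p = 0.013, 0.047 and 0.048). Without 1 h library B none of these 5 passed the threshold (adjusted p = 0.078 for SPG7 and 0.20 to 0.61 for the others), and without DMSO library A only SPG7 did (0.058 to 0.53 for the others). All 5 log2 changes stayed below 0 in these fits: without 1 h library B they were -0.38 at SPG7, -0.30 at SULF2 to PREX1 and -0.25 to -0.21 at the other 3, and without DMSO library A they ran from -0.42 to -0.20. DESeq2 called neither the SSU72 region (adjusted p = 0.20) nor that between ATP23 and LRIG3 (0.19). In the separate experiment 6086 each of the 5 overlapped a region that was lower at 2 h, against 5.24% of the 37318 regions paired by any overlap. The log2 changes there were -0.998 at SPG7 (adjusted p = 1.7e-14), -0.62 at SULF2 to PREX1 (2e-11), -0.50 at EDN3 to PHACTR3 (2.5e-09), -0.50 at SSU72 (2.6e-08) and -0.41 at ATP23 to LRIG3 (7.2e-07). Of these partners, 4 were broader regions that overlapped by less than the 50% that counted as a match, and that at ATP23 to LRIG3 met it.

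The highest gain, at the start of BAIAP2, whose product links membranes to actin, was chr17:79008491-79008891. Its level was 10.6 and 11.7 CPM in DMSO, 16.5 and 21.1 CPM at 1 h, and 15.49 and 13.98 CPM at 0.5 h (log2 change at 1 h 0.77, SE 0.14, adjusted p = 0.0022). The treated libraries all lay above both DMSO libraries, which the rule for naming gains required of the 1 h libraries. The 1 h replicates lay further apart than the DMSO replicates. The region chr5:177190713-177191483, to which no gene is given here, had 12.3 and 16.6 CPM in DMSO and 16.9 and 29.2 CPM at 1 h, so that 1 h library A barely exceeded DMSO library B (log2 change 0.71, SE 0.18, adjusted p = 0.028). Between CA5A, a mitochondrial carbonic anhydrase, and BANP, a nuclear DNA-binding protein, chr16:87979033-87979433 had 9.69 and 9.41 CPM in DMSO and 15.6 and 15.1 CPM at 1 h (log2 change 0.68, SE 0.13, adjusted p = 0.0038). It was the only one of the 8 highest gains to keep its call under all 16 alternative settings, with a highest adjusted p of 0.048.

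At or near the start of a gene lay 4 more of the 8 gains. At the start of RAI1, a transcriptional regulator, chr17:17585060-17585460 had 7.62 and 9.41 CPM in DMSO and 11.6 and 15.5 CPM at 1 h (log2 change 0.70, adjusted p = 0.031). RELT, a receptor of the tumour necrosis factor family, had 9.09 and 11.5 CPM in DMSO and 17.1 and 14.5 CPM at 1 h at chr11:73087120-73087520 (log2 change 0.62, adjusted p = 0.014). The regions at or near the starts of AHNAK2 (chr14:105444558-105444958) and SIPA1L2 (chr1:232765811-232766211) both had log2 changes of 0.67 (adjusted p = 0.03), and chr21:46149122-46149522 between TSPEAR and UBE2G2 one of 0.60 (adjusted p = 0.0027). Without 1 h library B, 6 of the 8 gains missed the threshold: those at BAIAP2 (adjusted p = 0.13), chr5:177190713-177191483 (0.80), RAI1 (0.58), AHNAK2 (0.32), SIPA1L2 (0.43) and TSPEAR (0.10). Without DMSO library A the gains at chr5:177190713-177191483, RAI1, AHNAK2, SIPA1L2 and RELT missed it (0.35 to 0.51), and without 1 h library A that at RELT (0.08). DESeq2 did not call the gains at chr5:177190713-177191483, RAI1, AHNAK2, SIPA1L2 and RELT either (0.12 to 0.59).

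**Figure D3:**
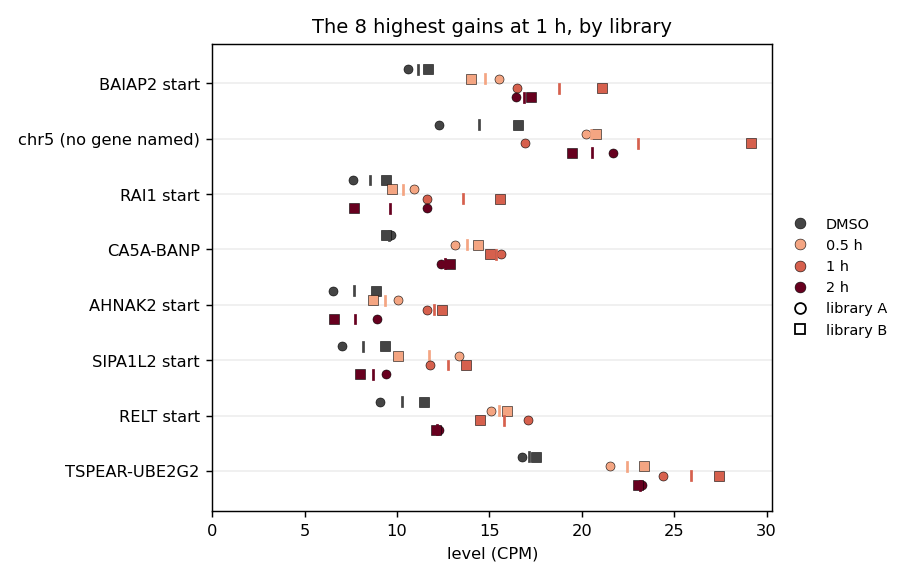
Level in CPM (horizontal axis) of the 8 highest gains at 1 h, 1 row a region, in each of the 8 libraries of experiment 6211; circles are library A, squares library B and vertical ticks group means. The 1 h libraries lie to the right of DMSO in each row, as the rule for naming these regions required. The widest replicate gap is in the chromosome 5 region, 16.9 against 29.2 CPM.

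The step from 0.5 h to 1 h was tested directly in the same fit. It passed the threshold at 0 of the 40844 regions (0%) in either direction with edgeR, while 2318 had an unadjusted p under 0.05, 1417 of them lower at 1 h. DESeq2 also called 0, and a fit of only these 4 libraries called 36 lower and 1 higher. At PIPOX the step was -0.325 (adjusted p = 0.70) and at the SPHKAP to PID1 region -0.79 (adjusted p = 0.18). Against DMSO, 3 regions (0.00735%) were lower at 0.5 h, and all 3 were lower at 1 h as well, a comparison with the same DMSO libraries. They were the CDC5L to SUPT3H region, chr1:36071004-36071404 in PSMB2, a proteasome subunit gene, and chr7:25817794-25818194 between NPVF and NFE2L3. The PSMB2 region had 55.3 and 51.3 CPM in DMSO, 32.2 and 35.7 CPM at 0.5 h and 32.04 and 27.08 CPM at 1 h. The 1 h libraries thus lay at or under those of 0.5 h (log2 change at 1 h against DMSO -0.86, SE 0.10, adjusted p = 2.5e-05). The NPVF to NFE2L3 region had a log2 change of -0.86 at 1 h (adjusted p = 4.4e-05).

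From 1 h to 2 h accessibility fell further at 129 regions (0.316%) and rose at 133 (0.326%). Of the 133, 112 lay on chromosome 12 between 57 and 59 Mb, a stretch of 250 regions of which 3 were lower and none higher at 1 h, and 21 lay elsewhere. The stretch holds the ATP23 to LRIG3 region, the lower region of highest DMSO level. It also holds chr12:58199934-58200334, picked for its wide gap between 1 h replicates, with 13.2 CPM in library A and 6.54 in B. That region had 9.54 and 14.2 CPM in DMSO and 18.2 and 25.9 CPM at 2 h. The part of replicate differences in the rise of this stretch was not tested. The CDC5L to SUPT3H region had a further log2 change of -1.02 (adjusted p = 1e-05), reaching 18.1 and 17.7 CPM at 2 h. In KCNIP1, which encodes a potassium channel partner, chr5:170008193-170008593 had 21.1 and 23.1 CPM in DMSO, 12.7 and 9.83 CPM at 1 h and 4.99 and 6.29 CPM at 2 h, a further log2 change of -0.99. In GRIP1, a scaffold of glutamate receptors, chr12:66997804-66998204 had 20.70 and 19.01 CPM in DMSO, 10.7 and 9.12 CPM at 1 h and 4.40 and 5.79 CPM at 2 h (further log2 change -0.96). These regions in KCNIP1 and GRIP1 were chosen for their loss at 2 h, so their step is given as a description. Of the 12 deepest losses at 1 h, only IRAK3 passed for this step (-0.79, adjusted p = 0.021), and the values of the others ran from -0.80 at ARID4B (adjusted p = 0.29) to -0.29 at CSRP3 (adjusted p = 0.71). The counts for this step depended on single libraries. Without 1 h library B or without 2 h library B the rises all but vanished, while without either library A their number stayed similar. Further losses became fewer in each of these fits except that without 2 h library A, where they became more. DESeq2 called 43 lower and 25 higher.

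Experiment 6086 shares no library with 6211, and 29639 regions had a single partner there by 50% reciprocal overlap, including 804 of the 1010 lower and 65 of the 90 higher regions. Most of the losses were called again. At 2 h in 6086, 653 of the 804 (81.2%) were called lower, against 5.42% of all matched regions. At 4 h it was 671 (83.5%, against 7.11%) and at 24 h 692 (86.1%, against 23.3%). Their median log2 change in 6086 was -0.61, -0.725 and -0.81 in turn. Below 0 lay 794 of the 804 at 2 h (98.8%, against 48.8% of all matched regions) and 761 at 24 h (94.7%, against 54.8%). At all 3 times 614 (76.4%) were called lower, against 4.5% of all matched regions, and 77 (9.58%, against 75.7%) at none. The 27 matched regions that lost at least 2-fold at 1 h were called lower at each of the 3 times, with medians of -1.37, -1.80 and -2.18. Of the 153 regions lower in every fit that left out 1 library, 121 were matched, and 119, 119 and 120 of them were lower at 2, 4 and 24 h. With the 1 h calls made without DMSO library A, 227 of 252 matched lower regions were lower at 2 h in 6086, without 1 h library B 135 of 137, without DMSO library B 800 of 1195 and without 1 h library A 629 of 972.

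The gains were followed in the same way. Of the 65 matched higher regions, 10 (15.4%) were called higher at 2 h in 6086, against 1.16% of all matched regions. At 4 h it was 11 (16.9%, against 1.87%) and at 24 h 23 (35.4%, against 12.1%), while 8 were called lower at 24 h (12.3%, against 23.3%). Their medians were 0.15, 0.11 and 0.11. Above 0 lay 58 of 65 at 2 h (89.2%, against 51.2% of all matched regions) and 44 at 24 h (67.7%, against 45.2%). With calls made without DMSO library A or without 1 h library B, 0 of 3 and 0 of 2 matched higher regions were higher at 2 h. Without DMSO library B it was 29 of 619 and without 1 h library A 31 of 267. Of the 8 highest gains, 4 had a partner, and their log2 changes at 2 h in 6086 ran from -0.15 at CA5A to BANP (adjusted p = 0.52) to 0.20 at TSPEAR to UBE2G2 (adjusted p = 0.22). At the BAIAP2 start a region that overlapped by less had a log2 change of -0.02 (adjusted p = 0.95).

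**Figure D4:**
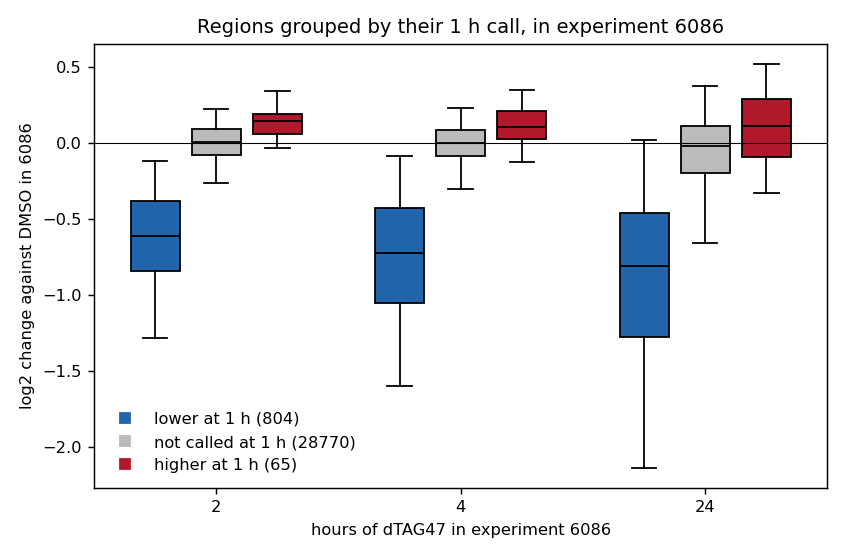
Log2 change against DMSO in experiment 6086 (vertical axis) at 2, 4 and 24 h for matched regions grouped by their call at 1 h in 6211: 804 lower (blue), 28770 not called (grey) and 65 higher (red). Boxes span the quartiles with the median as a line and whiskers reach the 5th and 95th percentiles; the blue medians are -0.61, -0.725 and -0.81, and the red ones 0.15, 0.11 and 0.11.

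Across all 29639 matched regions, the log2 change at 1 h in 6211 had a Pearson correlation of 0.604 with that at 2 h in 6086, of 0.538 at 4 h and of 0.375 at 24 h (Spearman 0.45, 0.33 and 0.224). These describe regions, which share the libraries of each experiment and are not replicates. Taken the other way, the 10 regions with the deepest loss at 24 h in 6086 all had a log2 change below 0 at 1 h, from -1.45 to -0.34, and 9 of them were called lower there. They included the regions in ARID4B, IRAK3 and KCNIP1, and chr12:66508872-66509272 between HMGA2, an architectural chromatin protein, and LLPH. The latter had 20.5 and 21.7 CPM in DMSO and 9.89 and 10.8 CPM at 1 h (log2 change -1.02, SE 0.13, adjusted p = 8.7e-05), and -3.51 at 24 h in 6086. The exception was chr14:34809424-34809824 between EGLN3, an oxygen-sensing hydroxylase, and SPTSSA. It had 24.8 and 24.0 CPM in DMSO and 19.998 and 18.62 CPM at 1 h (log2 change -0.34, adjusted p = 0.13), against -3.07 at 24 h in 6086. Of the 100 deepest losses at 24 h, 80 were lower at 1 h (against 2.71% of all 29639 matched regions) and 63 with DESeq2 (against 0.951%), with a median of -0.705 against 0.01. Of the 100 highest gains at 24 h, 0 were called higher at 1 h by edgeR and 0 by DESeq2, where the shares of all matched regions were only 0.219% and 0.0101%. Their median was 0.12, 68 lay above 0 (against 52.6% of matched regions) and 18 had an unadjusted p under 0.05 upward (against 6.86%).

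By level, the share of regions called lower was 2.86%, 2.70%, 2.67% and 1.67% in the 4 equal classes of mean count over the 8 libraries, from lowest to highest. The mean includes the treated libraries, so that a loss lowers the class of its own region and a gain raises it. The losses of at least 2-fold numbered 36, 6, 2 and 0 in the same classes. The share called higher was 0.0685%, 0.215%, 0.265% and 0.333% in the same order. Depth differed between these classes, with a median count of 139.8 reads a region in the lowest and 535.7 in the highest. In DMSO alone the median level was 22.09 CPM over lower regions, 19.25 over higher ones and 18.49 over all regions. The DMSO levels enter the calls as well, and whether losses or gains favour a level was not tested.

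By spacing, 1.92% of regions with another region within 12.5 kb were lower, 2.99% of those 12.5 to 100 kb from the nearest one and 4.92% of those further than 100 kb. For gains the order was opposite: 0.329%, 0.0762% and 0%, with 79 of the 90 in the closely spaced class. Replicates moved with the same classes. The median over all regions of a class was 0.03, -0.02 and -0.09 for the change at 1 h, and 0.02, -0.01 and -0.06 for 1 h library B minus library A. It was 0.01, -0.02 and -0.03 for DMSO library B minus library A, and 0.01, -0.01 and -0.05 for 1 h library A minus DMSO library B. Against the same DMSO libraries, the change had medians of 0.01, -0.01 and -0.03 at 0.5 h and 0.03, -0.02 and -0.09 at 2 h. Among the 153 regions lower in every fit that left out 1 library, the shares were 0.342%, 0.416% and 0.455%. The part of the replicate difference in the spacing pattern was not tested.

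**Figure D5:**
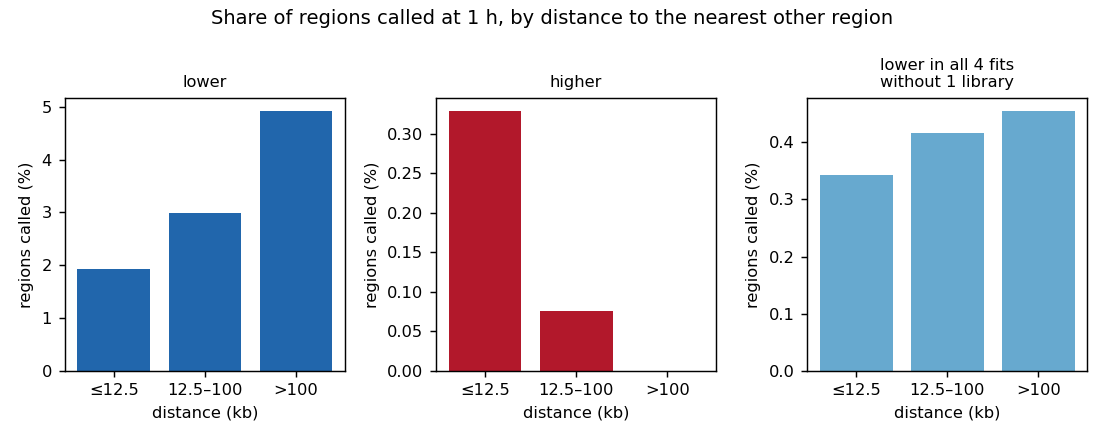
Share of regions called at 1 h (vertical axis, percent, a different scale in each panel) by distance to the nearest other region (horizontal axis, kb), for lower regions (left), higher regions (middle) and regions lower in all 4 fits without 1 library (right). The left bars go from 1.92% to 4.92%, the right ones from 0.342% to 0.455%.

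Most lower regions had no other lower region within 12.5 kb, although they had one more often than regions in general. Within 12.5 kb of another lower region were 69 of the 1010 (6.83%), against 1.81% of all regions, and they formed 33 pairs and 1 group of 3. That group, on chromosome 12, held chr12:117882598-117882998, chr12:117887964-117888364 and chr12:117889891-117890291, with log2 changes of -0.39, -0.54 and -0.49 (adjusted p = 0.035, 0.0012 and 0.03). Its middle member had 43.4 and 49.1 CPM in DMSO and 31.4 and 31.9 CPM at 1 h. By chromosome, the share of lower regions was highest on chromosome 4 (3.63%) and lowest on chromosome 19 (0.416%, 7 of 1683), leaving out the 2 regions on Y. The median change over all regions was -0.05 on chromosome 4 and 0.06 on chromosome 19, and 1 h library B minus library A had medians of -0.02 and 0.02 there. Gains were most frequent on chromosome 22 (0.814%, 7 of 860) and chromosome 17 (0.518%, 12 of 2318). These chromosomes also had the largest medians of 1 h library B minus library A, 0.034 and 0.0257. The part of the replicate difference in the shares by chromosome was not tested.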

How the data were processed

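ATAC-seq libraries of Rh30 cells were analysed from tables the authors deposited. Per the file headers, the deposited count tables give whole-number read counts for each region and library, not normalised. The deposited comparison table of 1 h against DMSO gives log2 fold changes and p-values of a test by the authors that has the columns of DESeq2, per the file headers. DESeq2 run here gave the same log2 changes and adjusted p-values as that table (differences of at most 7.6e-09 and 1.8e-07), so the 2 are not separate results. The table served for comparison only, and its per-library columns were not used here. The tools named in the submitters' processing notes are Trimmomatic 0.32 and Genrich 0.6.1, and, without a version, Bowtie2, DiffBind, DESeq2 and deepTools. The notes list the builds hg19 and dm3 and no role or order of any tool. Shifting of reads, treatment of duplicates and merging of peaks are not given in the sources used here.

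Each column went to a group by the treatment and time it names. Its letter, A or B, matches no replicate number in the labels. Replicate pairs had a chi-square of 1.41 to 2.66 per degree of freedom, above sampling noise. The test was edgeR 4.0.16 in R 4.3.3 (TMM, filterByExpr, quasi-likelihood, 8 libraries of 6211 in 1 fit, 4 residual and 19.6 prior degrees of freedom). The biological coefficient of variation was 5.96%, and the filter removed no region. TMM takes most regions as unchanged, so a uniform change would not be seen. Experiment 6086 was fitted separately and matched by position with GenomicRanges 1.54.1. The scripts were tested on simulated data first.

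Named regions were, among called regions that averaged 30 reads or more and had no overlap between the groups in log2 CPM (prior count 2), the 12 deepest losses, the 8 highest gains, and the 5 lower regions with the highest DMSO level and the 5 with the smallest p. Regions picked by other times or by experiment 6086, and groups of neighbouring lower regions, were added after values were seen. Of the 12 deepest losses, 1 is not reported here. The comparison, lists and rules were chosen with earlier results of these data known. Gene lists and cell type markers could not be tested because no hg19 annotation was used here. Alternatives were DESeq2 1.42.0, 4 other scalings, 2 other filters, only the groups compared, the letter as a block, leaving out each library, 2 region subsets and, added after the depths were seen, thinning all libraries to 9934147 reads.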

Additional observations from a re-analysis of the deposited data

Results flagged for a closer look

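At 6 of the 21 named losses the effect differed between 1 h and 2 h of dTAG47. The 2 h group was tested directly against the 1 h group in the same edgeR fit (Benjamini-Hochberg adjusted over all regions). Of all regions, 0.316% were lower at this step. That count depended on single libraries, and no alternative fit of these 6 steps is given here. In each of them both 2 h libraries lay below both 1 h libraries. The same libraries picked these regions, so this is a description only, and its share over all regions is not given here. The largest step was at chr6:44628192-44628592 between CDC5L and SUPT3H, a further log2 change of -1.02 (adjusted p = 1e-05), from 36.2 and 36.4 CPM to 18.1 and 17.7 CPM. In IRAK3 it was -0.79 (adjusted p = 0.021) at chr12:66634827-66635227, in PIPOX -0.64 (adjusted p = 0.0014) at chr17:27378228-27378628 and in SPG7 -0.61 (adjusted p = 0.0012) at chr16:89609375-89609775. Between SELENOP and ANXA2R it was -0.62 (adjusted p = 0.021) at chr5:42855493-42855893, and between SULF2 and PREX1 -0.38 (adjusted p = 0.029) at chr20:47084372-47084772.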

How the results depend on the processing

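The 1 h counts of 1010 lower and 90 higher regions became 360 and 6 with DESeq2, the same test and calls as in the authors' deposited table, and 616 and 12 when the fit held the 4 libraries alone. Thinning all libraries to the smallest total, chosen after seeing the data, left 40 higher, with the 744 lower within 1.5 times of the full count. Leaving out 1 library gave 172 to 1592 lower and 2 to 967 higher. The other scalings, filters and region subsets stayed within 1.5 times of both counts. With the library letter as a replicate block 1141 were lower and 131 higher, and the steps from 0.5 h (0) and to 2 h (141 lower, 141 higher) also stayed within 1.5 times. No source used here says that the letters pair the libraries. The replicate differences of the DMSO and 1 h groups correlated at 0.21, and those of every other pair of groups in 6211 at -0.05 to 0.09.

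The step from 0.5 h called 36 lower and 1 higher with only the groups compared. That to 2 h had 43 lower and 25 higher with DESeq2, and 4 to 272 lower and 0 to 148 higher without 1 library. Followed in 6086 at 2, 4 and 24 h, DESeq2 in both experiments gave 260, 266 and 269 of 282 lower regions and 0, 0 and 0 of 3 higher ones. Any overlap of 1 bp gave 16 of 81 higher regions at 2 h, against 1.15% of all regions paired in this way. No share over all matched regions is given here for the DESeq2 counts. Without 1 library, 135 to 800, 135 to 818 and 136 to 907 lower regions and 0 to 31, 0 to 24 and 0 to 95 higher ones were called again. These ranges are counts and not shares, because the number of matched regions followed differed between the fits. The fit without 1 h library B had the fewest lower regions called again and also the fewest to follow. The numbers followed, the same at each time, and the shares over all matched regions are given in the Results.

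Of 335 values of named losses under alternatives, 322 kept the call, 13 lost it and 0 reversed, and of 128 values of named gains 106 kept it and 22 lost it. No cause was tested. Depth and 2 libraries a group limit small changes. Counts were simulated with the mean levels and depths of these libraries and with their estimated spread as a trend over level. In them edgeR recovered 14% of 50 planted 1.25-fold changes and 76% of 50 planted 1.5-fold changes. Regions of like level shared 1 spread there, so recovery in the real counts may differ. Of the 1010 losses called, 11 were under 1.25-fold, which does not tell how many small losses were missed.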

Other observations

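Among the 804 matched losses, 12 (1.49%) were higher at 24 h in 6086, a smaller share than the 12.1% of all matched regions. The highest of these 24 h gains was at chr6:164198723-164199123, with a log2 change of -0.50 at 1 h (adjusted p = 0.043), -0.48 at 2 h in 6086 (adjusted p = 0.0041) and 0.59 at 24 h (adjusted p = 4.2e-06). At chr7:53740360-53740760 the values were -0.77 at 1 h (adjusted p = 0.0031), -0.34 at 2 h in 6086 (adjusted p = 0.063) and 0.41 at 24 h (adjusted p = 0.001). Both were picked after their values were seen.

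The replicates at 1 h differed most at chr1:567377-567777 and chr1:569724-570124, which hold many reads. The first had 209 CPM in 1 h library A and 494 in library B, beside 248 and 349 CPM in DMSO. The second had 303 and 666 CPM, beside 307 and 493 CPM in DMSO. Neither was called at 1 h (adjusted p = 0.62 and 0.55).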
